A study of Mus musculus with 8 samples.

Results

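A group of 35 genes that encode proteins of the sarcomere's Z-disc, thin filament and M-band, with their chaperones and the signaling proteins docked on them, was followed in the hearts of fetal mice with and without the type 3 deiodinase. The members were found by symbol among the 26590 gene symbols of the expression table, and a gene with several transcript rows was represented by the row of highest average level in the 2 genotypes together. All 35 were in the table, and 34 of them were among the 14657 genes expressed highly enough to be tested. Dio3+/+ and Dio3-/- fetuses, both of strain C57BL/6J, contributed 4 hearts each, and each RNA sample came from 1 fetus. The Dio3-/- fetuses lack the enzyme in every tissue from conception, so the hearts also developed in a body without it. The sample titles place all 8 hearts at embryonic day E13.5, whereas the age field gives E18.5 for 2 of the Dio3-/- hearts and the Methods name yet another embryonic day for all of them, so age and genotype cannot be told apart for those 2 hearts. The table used here holds genotype summaries, so no result could be given without these 2.

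The sarcomere is the repeating contractile unit of cardiac muscle. Thin filaments of actin are anchored at the Z-disc by alpha-actinin, myosin filaments are cross-linked at the M-band by myomesins, and titin spans from one to the other. The type 3 deiodinase inactivates thyroid hormone, and thyroid hormone is known to drive the switch of several contractile proteins from fetal to adult isoforms in rodent heart.

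Values are the authors' genotype means in RPKM (a read level corrected for how long the transcript is and how many reads were mapped), and each SD was calculated from the mean and the coefficient of variation (CV, the SD divided by the mean) in the same table. The table used here gives no value for a single heart, so each level stands below as mean ± SD of 4 hearts. The Methods describe the range of aligned reads over the samples, but the table links no read total to a heart, so no counting error was calculated. A log2 fold change is Dio3-/- minus Dio3+/+ on the log2(RPKM + 0.5) scale, and a gene was called at an adjusted p under 0.05 by limma with Benjamini-Hochberg adjustment over all tested rows. The RNA was from whole hearts, in which fewer cells of a type and less RNA per cell cannot be told apart.

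Of the 34 members tested, 5 rose in Dio3-/- hearts and 0 fell. Fhod3, Myoz2, Fhl2, Pdlim5 and Ankrd23 were the members that rose. Fhod3 and Myoz2 were also called with both genotypes centered on the median log2 ratio, with each CV raised by its rounding error and with no minimum level, and the other 3 were not called under these settings. Across all tested genes 2.29% were called, with 1.91% higher and 0.382% lower. Without adjustment, 17 members had a p under 0.05 by limma, all higher in Dio3-/- hearts, which was 50% of the members tested against 19.7% of all genes. On the RPKM scale, without moderation across genes and with unequal variances, 12 members (35.3%) had an unadjusted p under 0.05, against 16.4% of all tested genes, and after adjustment 0 members and 26 of all 14657 genes passed. The mean was higher in Dio3-/- hearts for 33 of the 35 genes (94.3%, against 63.3% of all tested genes), the exceptions being Myom2 and Myot. The median log2 fold change over the members was 0.23, and it was 0.04 over all tested genes. In the marker lists described below it was 0.29 for cardiomyocytes, 0.24 for smooth muscle, 0.11 for endothelium and 0.001 for fibroblasts and epicardium. For liver it was 1.58, for skeletal muscle -1.43 and for red cells -1.51. No test was made of the group as a whole, because its members were chosen with earlier results of these data known.

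**Figure D1:**
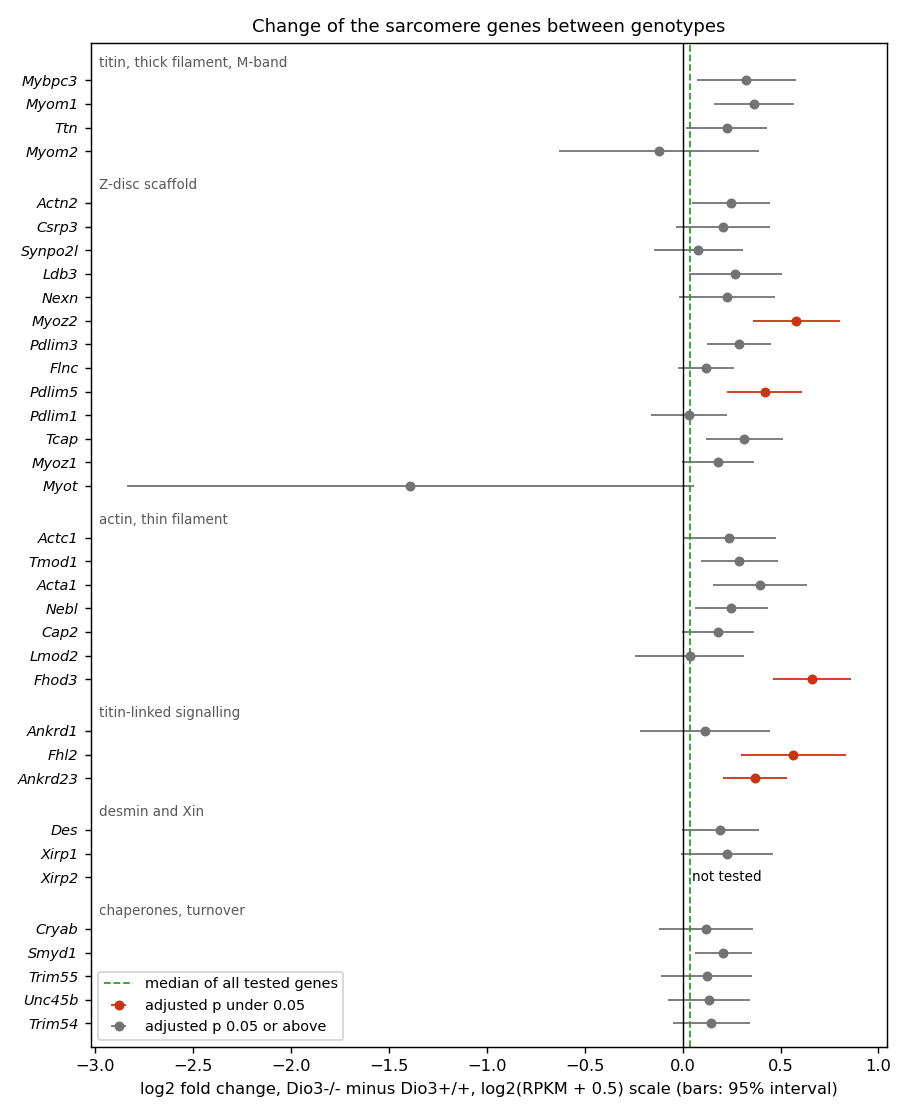
Log2 fold change (Dio3-/- minus Dio3+/+, log2(RPKM + 0.5) scale) of each member with its 95% interval, grouped by role, with the median of all tested genes as a dashed line. The 5 genes in red had an adjusted p under 0.05, and apart from Myom2 and Myot every tested member lies to the right of 0.

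Fhod3, a formin that organizes actin filaments in the cardiac sarcomere, showed the largest difference among the 5 called members. Its level was 26.7 ± 3.2 RPKM in Dio3+/+ hearts and 42.5 ± 3.4 RPKM in Dio3-/- hearts (SD, n = 4 each). That was a 1.59-fold difference, with a log2 fold change of 0.66 (SE 0.09, adjusted p = 0.00699 by limma). All 4 of its transcript rows were called. Fhod3 was therefore a gene of moderate level whose Dio3+/+ hearts all lay below its Dio3-/- hearts, a statement that follows from the summaries: no value of 4 can lie more than 1.5 sample SDs from their mean, so the hearts of the genotypes cannot overlap where the means differ by more than 1.5 times the sum of both SDs.

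Myoz2 encodes calsarcin-1, which binds alpha-actinin and the phosphatase calcineurin at the Z-disc. It stood at 77.9 ± 10.1 RPKM in Dio3+/+ hearts and at 117 ± 11.7 RPKM in Dio3-/- hearts, 1.5-fold higher (log2 fold change 0.58, SE 0.10, adjusted p = 0.0222 by limma). Its hearts did not overlap between genotypes, and both of its transcript rows were called. Fhl2, a LIM-only protein found at the Z-disc and bound to the titin spring region, stood at 51.9 ± 9.34 and 77.0 ± 6.93 RPKM (log2 fold change 0.56, SE 0.12, adjusted p = 0.0478 by limma). Here too the hearts of the genotypes were apart, although the separation was lost when each CV was raised by its largest rounding error.

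Pdlim5, a PDZ and LIM domain protein that tethers protein kinase C to alpha-actinin, stood at 57.8 ± 7.52 RPKM in Dio3+/+ hearts and at 77.5 ± 3.1 RPKM in Dio3-/- hearts (log2 fold change 0.42, SE 0.09, adjusted p = 0.042 by limma). Its 9 transcript rows fell into groups of 4 and 5. The 4 called rows had the higher levels, 46.1 to 57.8 RPKM in Dio3+/+ hearts and 60.7 to 77.5 RPKM in Dio3-/- hearts, with log2 fold changes of 0.39 to 0.43. In the other 5 rows the levels were 31.6 to 34.0 and 34.7 to 38.0 RPKM, with log2 fold changes of 0.13 to 0.16 and adjusted p of 0.391 to 0.449 by limma. The estimates for Pdlim5 thus fell into a higher and a lower set, but rows of 1 gene share reads, and the difference between the rows was not tested.

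Ankrd23, an ankyrin repeat protein that binds titin, was the lowest of the called members. Its level was 1.69 ± 0.068 RPKM in Dio3+/+ hearts and 2.33 ± 0.12 RPKM in Dio3-/- hearts, which gave a log2 fold change of 0.37 (SE 0.07, adjusted p = 0.038 by limma). The hearts of the genotypes were apart and 3 of its 4 rows were called. Of the 75-base windows of its longest coding transcript in GENCODE M21, 87.5% also occur in another annotated gene, Gm42417, so its reads could belong to either gene. Its call is uncertain for that reason.

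**Figure D2:**
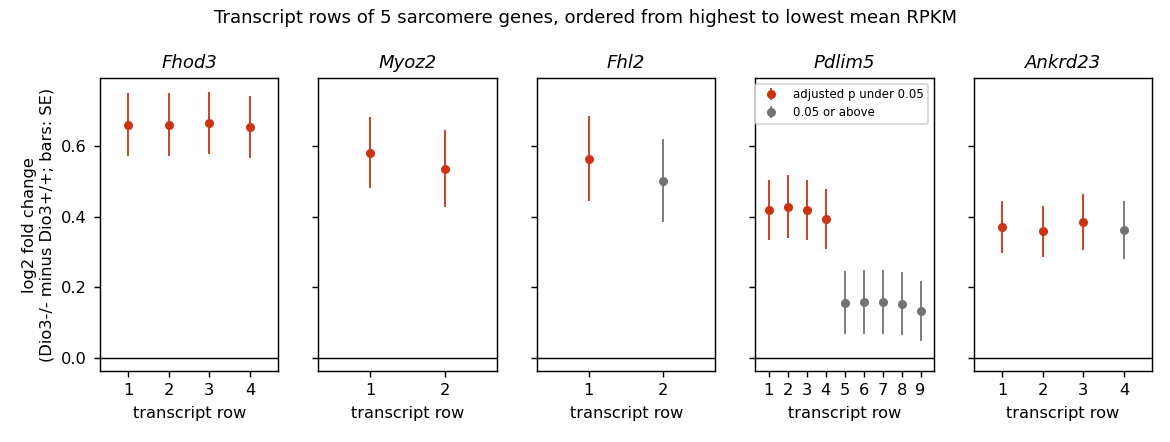
Log2 fold change of each transcript row (points, with SE bars) of the 5 called members, ordered within a gene from the highest to the lowest mean RPKM, with called rows in red. The 9 rows of Pdlim5 form a higher set of 4 and a lower set of 5, while the rows of the other genes lie close together.

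Counted by whether their hearts can overlap, 7 members had genotypes apart: the 5 called genes and Myom1 and Pdlim3. Over all tested genes the share was 5.49%. With each CV raised by its rounding error, 5 members remained apart, without Myom1 and Fhl2. A count by any transcript row gave the same 5 called members, where 2.59% of all tested genes were called. Over the 98 transcript rows of the members, 93 were tested and 14 were called, all of them higher in Dio3-/- hearts, against 2.15% of all rows. Of the 23 members with several tested rows, Ttn was the one whose rows differed in direction, with none of its rows called.

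Promoter sequence was examined because the called members differed in the same direction and because cardiac and skeletal muscle actin are classic targets of serum response factor. RefSeq promoters on GRCm38.p6, each from 250 bases before to 50 after a transcription start, were found for 26 of the 35 genes, as 36 promoters. They were searched on both strands for the CArG box bound by serum response factor, the MEF2 site, the M-CAT element CATTCC bound by TEAD factors, the GATA site AGATAA and AGGTCA, the hexamer recognized by thyroid hormone receptors and other nuclear receptors. The sequences below run 5' to 3' on the gene's strand, the minus strand in each case, with 1 match in capitals. For the called genes with an entry these are a MEF2 site in Myoz2 (chr3:123034938-123035237), the CArG box nearer to the start in Fhl2 (chr1:43163912-43164211), which has another in its second listed promoter, the reverse complement of AGGTCA in Pdlim5 (chr3:142391801-142392100) and AGGTCA itself in 1 promoter of Ankrd23 (chr1:36536507-36536806). That Ankrd23 window also holds the GATA and the M-CAT letters, which are not marked. Another Ankrd23 promoter holds the M-CAT letters, and the second listed promoter of Fhl2 holds the GATA letters. The cardiac actin gene Actc1 (chr2:114052826-114053125) and the skeletal actin gene Acta1 (chr8:123894726-123895025) are shown for their CArG boxes, which lie close to the start in both genes.
Myoz2: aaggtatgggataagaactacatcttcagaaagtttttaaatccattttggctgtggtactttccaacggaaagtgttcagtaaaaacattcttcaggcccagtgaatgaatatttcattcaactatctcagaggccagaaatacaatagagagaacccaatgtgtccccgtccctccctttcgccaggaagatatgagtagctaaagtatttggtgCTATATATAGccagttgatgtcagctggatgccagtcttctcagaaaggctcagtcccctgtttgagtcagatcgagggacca
Fhl2: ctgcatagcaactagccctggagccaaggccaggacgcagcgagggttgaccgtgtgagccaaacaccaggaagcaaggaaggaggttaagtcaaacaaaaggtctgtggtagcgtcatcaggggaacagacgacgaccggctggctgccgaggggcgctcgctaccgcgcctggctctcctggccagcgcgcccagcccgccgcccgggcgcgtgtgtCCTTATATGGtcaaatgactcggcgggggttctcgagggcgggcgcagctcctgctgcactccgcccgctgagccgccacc
Pdlim5: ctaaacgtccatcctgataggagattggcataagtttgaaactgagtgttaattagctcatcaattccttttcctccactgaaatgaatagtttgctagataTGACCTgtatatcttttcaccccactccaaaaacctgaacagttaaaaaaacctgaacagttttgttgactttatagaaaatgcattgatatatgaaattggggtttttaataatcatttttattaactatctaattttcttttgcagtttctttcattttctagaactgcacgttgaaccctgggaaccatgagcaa
Ankrd23: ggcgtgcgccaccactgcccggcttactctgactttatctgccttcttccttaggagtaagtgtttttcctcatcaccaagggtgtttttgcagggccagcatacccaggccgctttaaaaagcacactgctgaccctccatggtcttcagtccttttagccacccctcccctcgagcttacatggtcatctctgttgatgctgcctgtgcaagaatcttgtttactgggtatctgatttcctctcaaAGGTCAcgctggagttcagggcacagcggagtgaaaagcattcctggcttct
Actc1: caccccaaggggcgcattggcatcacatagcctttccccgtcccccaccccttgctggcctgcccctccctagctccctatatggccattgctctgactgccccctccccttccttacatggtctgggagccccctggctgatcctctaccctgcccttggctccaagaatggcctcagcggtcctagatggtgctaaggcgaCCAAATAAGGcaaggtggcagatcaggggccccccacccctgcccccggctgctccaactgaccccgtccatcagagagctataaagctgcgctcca
Acta1: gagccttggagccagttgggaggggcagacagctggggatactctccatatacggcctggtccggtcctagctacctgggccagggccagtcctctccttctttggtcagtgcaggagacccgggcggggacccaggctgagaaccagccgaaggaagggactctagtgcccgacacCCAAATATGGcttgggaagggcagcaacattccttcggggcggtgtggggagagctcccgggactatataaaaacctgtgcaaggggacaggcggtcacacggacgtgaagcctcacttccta

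The CArG box was present in 6 of the 26 genes (Acta1, Actc1, Fhl2, Ldb3, Myom1 and Nebl) and in 22.2% of their promoters, against 1.63% of all 32851 promoters. A MEF2 site was present in 5 genes (Mybpc3, Myoz2, Synpo2l, Ttn and Xirp2), 16.7% of promoters against 1.86%. The M-CAT letters were in 30.6% of the members' promoters and 14.7% of all, and the GATA letters in 16.7% and 11.2%. AGGTCA was present in 5 genes (Actn2, Ankrd23, Nebl, Pdlim5 and Xirp2), 13.9% of promoters against 16.3% of all. The muscle elements thus stood at a higher share in these windows than among all promoters and the nuclear receptor hexamer at a slightly lower one, and no test was made of these shares. The windows of the 2 Ldb3 promoters with a CArG box overlap, as do those of the 2 Flnc promoters with the M-CAT letters, so that in each gene 1 match counts for both. No matches of different motifs overlapped one another. A match is a description of letters and neither a binding site nor a cause of a difference in level.

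Titin and the thick filament came next in the order of roles. None of the 4 genes here was called, and their median log2 fold change was 0.28. Ttn, whose protein spans from Z-disc to M-band, stood at 62.8 ± 5.65 RPKM in Dio3+/+ hearts and 73.6 ± 8.83 RPKM in Dio3-/- hearts (log2 fold change 0.23, 95% interval 0.02 to 0.43, adjusted p = 0.224 by limma). Myom1, the myomesin that cross-links thick filaments at the M-band, stood at 122 ± 17.0 and 157 ± 6.27 RPKM (0.37, interval 0.16 to 0.57, adjusted p = 0.0696 by limma). Its hearts did not overlap between genotypes by the summaries as printed, and it missed the threshold of the test. Mybpc3, cardiac myosin-binding protein C, stood at 302 ± 51.3 and 378 ± 26.5 RPKM (0.33, interval 0.07 to 0.58, adjusted p = 0.155). Myom2, the myomesin typical of adult and fast muscle, was low at 2.35 ± 0.89 and 2.12 ± 0.57 RPKM, and its interval of -0.63 to 0.39 spanned both directions.

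Among the 13 Z-disc scaffold genes, Myoz2 and Pdlim5 were called and the median log2 fold change was 0.23. The most abundant were Actn2, the alpha-actinin that anchors thin filaments, at 304 ± 36.5 and 361 ± 25.3 RPKM (log2 fold change 0.25, adjusted p = 0.174 by limma), and Csrp3, muscle LIM protein, at 280.4 ± 42.1 and 323 ± 29.1 RPKM (0.21, adjusted p = 0.346). Both are core Z-disc components, and neither passed the test. Pdlim3, an alpha-actinin-associated LIM protein, stood at 80.9 ± 8.89 and 98.9 ± 1.98 RPKM (0.29, interval 0.13 to 0.45, adjusted p = 0.0713 by limma). Tcap, telethonin, which caps the titin end in the Z-disc, stood at 23.7 ± 3.32 and 29.6 ± 0.89 RPKM (0.31, interval 0.12 to 0.51, adjusted p = 0.0938 by limma). In both genes the Dio3-/- hearts lay within a narrow band above the Dio3+/+ mean. The close relatives Pdlim1, Pdlim3 and Pdlim5 thus had log2 fold changes of 0.03, 0.29 and 0.42, and the interval of Pdlim1 was -0.16 to 0.23.

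The other Z-disc scaffolds missed the threshold with smaller or less even differences. Ldb3, known as Cypher or ZASP, had a log2 fold change of 0.27 from 105 ± 16.9 RPKM, and Nexn, nexilin, had 0.23 from 99.1 ± 16.8 RPKM. Flnc, filamin C, had 0.12 from 73.3 ± 5.13 RPKM. Synpo2l, a synaptopodin relative of the Z-disc, had 0.08 from 126 ± 18.9 RPKM. Adjusted p by limma was 0.21 for Ldb3 and between 0.302 and 0.725 for the other 3. Myoz1, calsarcin-2 and mostly a fast skeletal protein, was low at 5.25 ± 0.47 and 6.01 ± 0.54 RPKM (log2 fold change 0.18, adjusted p = 0.278 by limma). Its share of the summed means of Myoz1 and Myoz2 was 6.31% in Dio3+/+ and 4.89% in Dio3-/- hearts, so Myoz2 was the more abundant calsarcin in both genotypes.

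**Figure D3:**
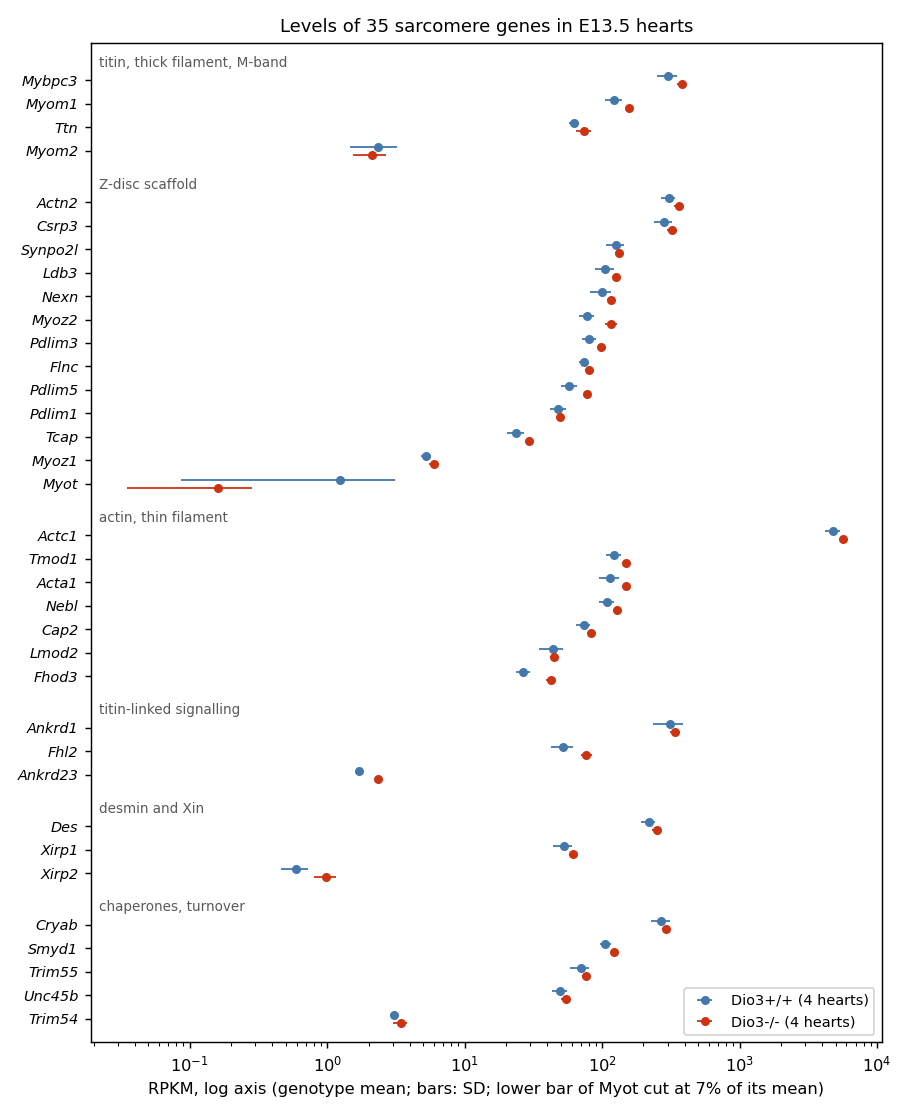
Genotype mean (points) and SD (bars) of 4 hearts for each member in RPKM on a log axis, grouped by role and ordered by level. Actc1 lies far above the rest at 4778 and 5638 RPKM, and Myot is the member with the widest bars and the largest gap to a lower Dio3-/- mean.

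Actin and the genes that set thin filament length were 7 in number, and Fhod3 was the called member. Actc1, cardiac alpha-actin, was the most abundant gene of the group and ranked 11 among all tested genes at 4778 ± 621 RPKM in Dio3+/+ hearts and 5638 ± 282 RPKM in Dio3-/- hearts (log2 fold change 0.24, adjusted p = 0.266 by limma). Acta1, skeletal alpha-actin, which cardiomyocytes also express, stood at 114 ± 19.3 and 149.8 ± 7.49 RPKM (0.40, interval 0.16 to 0.64, adjusted p = 0.0861 by limma). Both striated muscle actins had higher means in Dio3-/- hearts, and neither passed the test. The share of Acta1 in the sum of the 2 means was 2.33% in Dio3+/+ and 2.59% in Dio3-/- hearts. Cardiac actin therefore exceeded skeletal actin 42.0-fold in Dio3+/+ hearts and 37.6-fold in Dio3-/- hearts, and the difference between these ratios was not tested.

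The remaining thin filament genes had intervals that ranged from wholly above 0 to centered near it. Tmod1, tropomodulin, which caps the pointed end of the filament, stood at 122 ± 15.8 and 149 ± 7.45 RPKM (log2 fold change 0.29, adjusted p = 0.113 by limma), and 39.3% of its 75-base windows also occur in other annotated genes. Nebl, nebulette, which lies along the filament at the Z-disc, stood at 109 ± 14.1 and 129 ± 2.58 RPKM (0.25, adjusted p = 0.144), and Cap2, an actin monomer-binding protein, at 73.4 ± 8.81 and 83.4 ± 4.17 RPKM (0.18, adjusted p = 0.271). Lmod2, the leiomodin that elongates cardiac thin filaments, had close means in both genotypes, at 43.6 ± 8.72 and 44.7 ± 2.68 RPKM (0.04, interval -0.24 to 0.31, adjusted p = 0.909 by limma). The interval of Lmod2 still allows a difference of the size seen in Tmod1.

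Of the 3 titin-linked signaling genes, Fhl2 and Ankrd23 rose, as described above. Ankrd1, the cardiac ankyrin repeat protein and the abundant relative of Ankrd23, stood at 311 ± 74.7 RPKM in Dio3+/+ hearts and 337 ± 23.6 RPKM in Dio3-/- hearts (log2 fold change 0.12, interval -0.22 to 0.45, adjusted p = 0.734 by limma). Its Dio3+/+ hearts had the widest relative spread of the abundant members, a CV of 0.24. Ankrd23 made up 0.54% of the summed means of both genes in Dio3+/+ and 0.687% in Dio3-/- hearts, so that its rise concerned a small part of this family's RNA.

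Desmin, the intermediate filament that links neighboring Z-discs, and the Xin proteins of the intercalated disc had no called member. Des stood at 218 ± 26.2 and 249 ± 17.4 RPKM (log2 fold change 0.19, adjusted p = 0.279 by limma), and Xirp1 at 52.5 ± 8.39 and 61.4 ± 4.3 RPKM (0.23, adjusted p = 0.287 by limma). Xirp2 was the member left untested, since its means of 0.59 ± 0.13 and 0.98 ± 0.18 RPKM lay under the minimum of 1 RPKM. With no minimum its log2 fold change was 0.44 (SE 0.12, adjusted p = 0.118 by limma), and 0 of its 5 rows were called, where 0.794% of all genes were.

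Chaperones and turnover proteins gave the smallest differences, a median log2 fold change of 0.13 with 0 of 5 called. Smyd1, a methyltransferase needed for sarcomere assembly, stood at 106 ± 9.53 and 122 ± 3.67 RPKM (0.21, interval 0.06 to 0.35, adjusted p = 0.123 by limma). Unc45b, the myosin chaperone, stood at 49.5 ± 6.43 and 54.3 ± 4.34 RPKM (0.13, adjusted p = 0.494), and Cryab, the small heat shock protein that protects desmin and titin, at 270.2 ± 43.2 and 294 ± 20.5 RPKM (0.12, adjusted p = 0.604). The muscle RING finger genes Trim54 and Trim55 stood at 3.04 ± 0.18 and 3.42 ± 0.41 RPKM, and at 69.7 ± 11.2 and 75.9 ± 4.56 RPKM. Neither RING finger gene passed the test, with adjusted p of 0.411 and 0.577 by limma. Reads of Cryab, Trim54, Pdlim1, Unc45b and Des are also less certain, as 5.01% to 17.1% of their windows occur in other annotated genes. By the same measure 24 of the 35 genes shared no window.

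The CV between hearts was larger in Dio3+/+ hearts for most members, and no test of a difference in spread was made. All members were measured in the same few hearts of each genotype. A count of members with a larger CV is therefore not a count of independent observations. The median CV of the members was 0.13 in Dio3+/+ hearts and 0.07 in Dio3-/- hearts, and over all tested genes it was 0.09 and 0.06. The CV was larger in Dio3+/+ hearts for 31 of the 35 members (88.6%, against 65.4% of all tested genes). In the marker lists described below the same held for 8 of 8 cardiomyocyte and 13 of 14 skeletal muscle markers. It held for 3 of 8 liver and 0 of 5 red cell markers. The members' means summed to 8172 RPKM for Dio3+/+ hearts and to 9643 RPKM for Dio3-/- hearts, a ratio of 1.18. Actc1 made up most of both sums, and its own ratio was also 1.18.

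Myot, myotilin, a Z-disc protein mainly of skeletal muscle, was the exception in level and spread. It stood at 1.23 ± 1.89 RPKM in Dio3+/+ hearts and 0.16 ± 0.13 RPKM in Dio3-/- hearts (log2 fold change -1.39, interval -2.84 to 0.06, adjusted p = 0.285 by limma). Its CV of 1.54 in Dio3+/+ hearts shows very uneven values, since 2 is the most that 4 values can give, but the table does not show which heart was high. No other member had a CV above 1 in Dio3+/+ hearts, and 0.846% of all tested genes had one. Beyond Myot and Myom2, the members' CVs in Dio3+/+ hearts reached 0.24. Of 14 skeletal muscle markers, 10 had a CV of 1.36 to 1.62 in Dio3+/+ hearts, and all 10 had a lower mean in Dio3-/- hearts. Their part in the values of Myot was not tested. Without Myot, the other 34 members kept a median log2 fold change of 0.23.

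**Figure D4:**
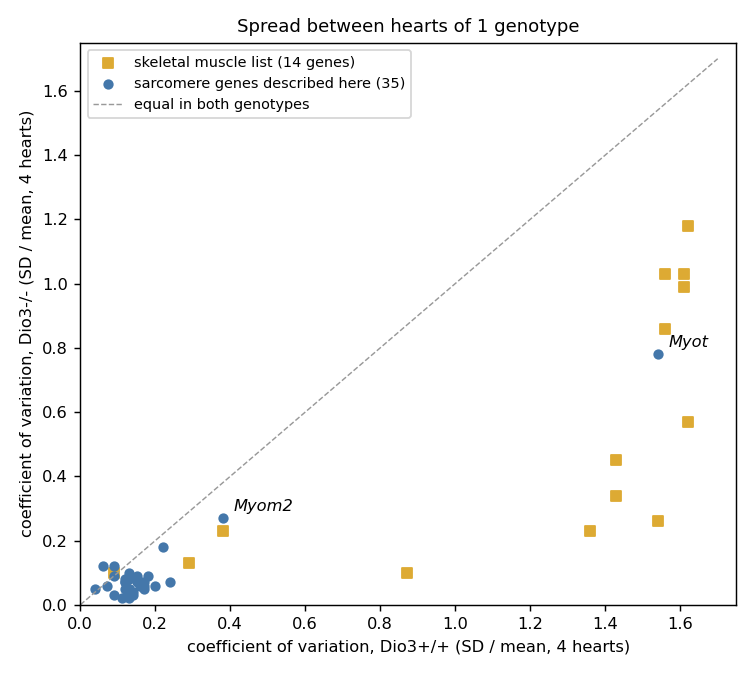
CV between the 4 hearts of a genotype, Dio3+/+ on the x axis and Dio3-/- on the y axis, for the 35 members (blue) and 14 skeletal muscle markers (yellow). Myot, at 1.54 and 0.78, lies with the skeletal muscle markers, and the other members other than Myom2 lie at 0.24 or less on the x axis.

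Markers of the cell types a dissected heart can hold were compared beside these values, and no marker was at 0 in either genotype. Cardiomyocyte markers summed to 7834 RPKM for Dio3+/+ hearts and to 9496 RPKM for Dio3-/- hearts, with 3 of 8 called, all higher. The sum includes these 3, and of the 8 markers 7 had a higher and 1 a lower mean in Dio3-/- hearts. Myl2, Tnnt2 and Myl7, the most abundant of them, were not called (log2 fold change 0.24, 0.08 and 0.33). The skeletal muscle markers summed to 86.9 and 25.9 RPKM, and of the 12 tested Tnni2, fast troponin I, was called, at 11.1 ± 0.998 and 7.55 ± 0.755 RPKM (log2 fold change -0.53, adjusted p = 0.0169 by limma). The myogenic regulators Myod1 and Myog stood at 4.42 and 0.46 RPKM and at 9.78 and 1.17 RPKM, the fusion factor Mymk at 3.2 and 0.28 RPKM, and the calcium pump Atp2a1 at 3.34 and 0.89 RPKM. The skeletal filament genes stood at 25.3 and 5.6 RPKM for Mylpf, 14.2 and 0.72 RPKM for Myh3, 4.49 and 3.04 RPKM for Tnnt3, 3.79 and 3.26 RPKM for Myh8, 2.5 and 0.35 RPKM for Tnnc2, 1.93 and 0.43 RPKM for Neb and 1.65 and 2.04 RPKM for Actn3. Of the skeletal markers tested, Tnni2 was the only call. Embryonic red cell markers summed to 37087 and 12662 RPKM with Hbb-bh1 called lower. Liver markers summed to 22.7 and 119 RPKM with 0 of 8 called. All 8 liver markers were higher at an unadjusted p under 0.05 by limma. At that limit 5 of 5 red cell and 7 of 12 skeletal muscle markers were lower by limma. On the RPKM scale, without moderation across genes and with unequal variances, 0 liver, 4 red cell and 1 skeletal muscle markers reached that limit. Smooth muscle markers (693 and 812 RPKM), fibroblast and epicardial markers (436 and 400.4 RPKM) and endothelial markers (188 and 203 RPKM) had 0 called. Most of the smooth muscle sum was Acta2, at 513 and 625 RPKM, and which cells held its RNA was not tested. RPKM is a share of the mapped reads, and the part of the red cell, liver or cardiomyocyte differences in the members' values was not tested. The targeted gene was too low to check the genotypes, with Dio3 at 0.35 ± 0.43 and 0.13 ± 0.10 RPKM. The fetuses are described as male. However, Xist, expressed from the inactive X of females, averaged 35.64 and 39.97 RPKM with CVs of 0.99 and 0.55. Eif2s3y, a gene of the Y chromosome, averaged 9.38 and 7.29 RPKM with CVs of 1.04 and 1.46. RNA of both sexes was thus present in each genotype, and the values used here do not show which heart was of which sex.

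Other sarcomere genes were set beside the group, from a list of 62 of which 56 were tested. The list also holds genes of the general cytoskeleton, chaperones and genes typical of skeletal muscle, such as Neb. Its figures are therefore not those of the cardiac sarcomere alone. Of these, 3 rose in Dio3-/- hearts and 0 fell, which was 5.36% called, against 2.29% of all tested genes. The median log2 fold change was 0.08, and it was 0.04 over all tested genes. With both genotypes centered, or with each CV raised by its rounding error, Lmod3 was the 1 gene of the list still called. Lmod3, a leiomodin of striated muscle, stood at 13.2 ± 1.32 and 20.4 ± 1.63 RPKM (0.61, SE 0.08, adjusted p = 0.00699 by limma). Its share of the summed means of Lmod3 and Lmod2 was 23.2% in Dio3+/+ and 31.3% in Dio3-/- hearts, and the difference between the shares was not tested. Actn1, the non-muscle alpha-actinin, stood at 68.0 ± 2.72 and 79.4 ± 1.59 RPKM (0.22, adjusted p = 0.037 by limma), and its call was also lost without the mean-variance trend. The muscle alpha-actinin Actn2 had a log2 fold change of the same size, 0.25, with a wider spread between hearts and no call.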

How the data were processed

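RNA of 8 fetal hearts, 4 of each genotype, was depleted of ribosomal RNA and sequenced single-end. Per the labels and the Methods, the authors aligned reads with Novoalign (2.08), kept reads that mapped to 1 place and scaled every sample down to the read number of the smallest one. The genome build and the strand setting are not given in the sources used here. Genotype means were deposited by the authors with no unit in the header, and were taken as RPKM from the Methods, which use that unit for the filter on expression. They also deposited a ratio for each genotype, the coefficient of variation, with 2 decimals. The deposited fold change (a ratio of the larger to the smaller mean) and q value (a p-value adjusted by the Benjamini-Hochberg method) are the authors' own comparison and were not used. The table has 51414 rows, each a UCSC transcript, and it links no read total to a heart, so no interval for counting error was given, although the Methods describe the range of aligned reads over the samples.

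The test had been planned on single hearts. As the table holds genotype summaries, it was calculated from these, taking log2(mean + 0.5) and an SD scaled to it, an approximation that worsens as the spread grows. Variances with 6 residual degrees of freedom were moderated with limma (3.58.1, R 4.3.3) and a mean-variance trend, which added 3.52 degrees of freedom. P values were adjusted over 32703 rows, those whose mean exceeded 1 RPKM in either genotype. The script was tested on simulated data. Python (3.11.15), numpy (2.4.6), pandas (2.3.3) and scipy (1.17.1) were used for summaries. The genes named were all members, called genes of the other sarcomere list, the skeletal markers above 1 RPKM, up to 3 of each other marker list with the highest mean, and Dio3. Xist and Eif2s3y were named outside that rule after their values were seen. The values of 1 called gene of the other sarcomere list are not reported here. The members and the lists were chosen with earlier results of these data known. Klhl40, Klhl41 and Mlip were matched by older symbols. Alternatives were other pseudocounts (0.1 and 1), no expression minimum, a mean above 5 RPKM, no trend, 1 row per gene, Welch's test (unmoderated, with unequal variances, on the RPKM scale), centering on the median log2 ratio, coefficients of variation raised by 0.005 and no rows with a coefficient above 0.5. RefSeq promoters and GENCODE M21 transcripts were matched by symbol, and a window was counted as shared when the same 75 bases occur in another gene on either strand.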

Additional observations from a re-analysis of the deposited data

How the results depend on the processing

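No paired analysis was possible because the table gives genotype summaries, in which the replicate numbers of the labels do not appear. Leaving out each heart could not be run for the same reason. Of the 10 alternatives, 5 moved the count of called members by more than 1.5 times: it was 0 with Welch's test, 2 (Fhod3 and Myoz2) with centering, with raised coefficients of variation and with no expression minimum, and 3 (those and Ankrd23) without the trend, and the counts by any transcript row were the same 0, 2 and 3. Over all genes the called rows fell as well, from 703 to 62 with Welch's test, 394 with centering, 414 with raised coefficients, 431 with no minimum and 571 without the trend. Adjusted p ranged over the alternatives from 0.00336 to 0.0787 for Fhod3, 0.0119 to 0.132 for Myoz2, 0.0296 to 0.163 for Fhl2, 0.027 to 0.176 for Pdlim5 and 0.0127 to 0.0706 for Ankrd23, by limma except for the upper value, which was Welch's test in each gene. Fhod3 and Myoz2 were called in 9 of the 10 alternatives, Fhl2 and Pdlim5 in 5 of 10 and Ankrd23 in 5 of the 9 that tested it. Centering both genotypes, a shift of 0.04, turned the log2 fold change of Lmod2 to -0.002 and of Pdlim1 to -0.005, and no other tested member changed direction under these alternatives. Among other sarcomere genes 0 were called with Welch's test and 1 (Lmod3) with centering or raised coefficients, and 1 marker of a cell type was called with Welch's test, against 5 with limma. The cause of these losses was not tested. Values in 2 decimals and 4 hearts per genotype limit what can be seen in members under 3 RPKM, such as Ankrd23, Myom2, Myot and Xirp2.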
